A study of Drosophila melanogaster with 5 samples.

Results

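Cytochrome P450 genes were followed in cephalic complexes, the brain lobes and eye-antennal imaginal discs, of Drosophila melanogaster larvae that lack lethal giant larvae (lgl). The members were genes whose symbol in the annotation of the array starts with Cyp and a digit. This rule matched 83 of 11982 genes. Of these, Cyp1 and Cyp40 are cyclophilins, which fold proteins and are not P450 enzymes, so they were set aside and 81 P450 genes remained. P450 enzymes are haem proteins that insert an oxygen atom into small molecules. Insects use some of them to make and break down hormones and cuticle lipids, and others to clear plant toxins and insecticides. They are grouped into 4 clans by descent, named CYP2, CYP3, CYP4 and mitochondrial, and the CYP3 and CYP4 clans hold most of the enzymes tied to detoxification.

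The mutant larvae carried the null alleles lgl27S3 and lglE2S31 over each other and were taken 4 days into a prolonged 3rd instar, when the tissue has formed tumours. The control larvae, FRT82B on the labels and another strain in the study's text, were taken at day 0. The lgl group held 3 arrays and the FRT82B group 2, with RNA of many animals pooled on each. The submitters left out 1 further FRT82B sample for its quality, and it was not analysed here. Genotype and age changed together, so their parts cannot be told apart. Values are log2 expression after RMA (robust multi-array average), where a step of 1 is a doubling, and a difference is always lgl minus FRT82B. A gene was called changed at a limma adjusted p under 0.05 and a log2 change of at least 1. In whole tissue, fewer cells of a type and less RNA per cell cannot be told apart.

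Markers of the labelled tissue were present, with 6 of 6 measured neuron markers, 5 of 5 neuroblast markers and 6 of 7 eye-antennal disc markers above log2 5 on at least 1 array. Markers of other tissues were present too, with 8 of 8 for haemocytes, 3 of 3 measured for fat body and 4 of 5 for trachea. The median change of these lists was 1.07, 1.48 and 1.25, and 0 of their genes were called, where 1.34% of all genes were. All 3 measured genes of gut and Malpighian tubule stayed under log2 5 on every array. The part of these tissues in the P450 values was not tested. The FRT82B arrays stood apart from each other. They correlated at 0.981 over all probe sets, against 0.995 to 0.997 among lgl arrays and FRT82B array 1 was the farther from the lgl arrays, at 0.970 to 0.972, with 0.982 to 0.984 for array 2.

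Of the P450 genes 2 were called changed, where 1.34% of all genes were, so calls were few in the family and over all genes alike. Of the 81 genes 1 was called higher, Cyp310a1, where 0.734% of all genes were, and 1 was called lower, Cyp9c1, where 0.609% were. The other 79 were not called. Without a fold cut-off another gene passed the adjusted p, Cyp6g2, so that 3 of 81 passed where 2.09% of all genes did. At an unadjusted p under 0.05 there were 10 of 81, against 22.0% of all genes.

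Most of the family was dim in this tissue. Only 22 of the 81 genes rose above log2 5 on any array, and the other 59 lay between 2.25 and 4.87. The median of all probe sets was 3.79 to 3.86 per array. Nearest above the level of 5 were Cyp4d2, whose highest array read 5.03, and Cyp6v1, at 5.09. Nearest below were Cyp6a23, at 4.87, and Cyp6g1, at 4.68. By clan, 14 of 37 CYP3 genes, 5 of 32 CYP4 genes, 3 of 8 mitochondrial genes and 0 of 4 CYP2 genes passed this level. Over the 22 genes the median change was -0.01, against 0.03 over all 6881 genes above log2 5, with 10 changes above 0 and 12 below, where 47.3% of those genes were below. It was 0.04 with median centring and -0.07 with quantile normalisation again, so its sign was not settled. Of the 22 genes 13 passed log2 5 on all 5 arrays and 9 on some only, among them Cyp6a20 and Cyp12b2 on FRT82B array 1 alone. The called genes were among the 9 too, with Cyp310a1 passing on lgl arrays only and Cyp9c1 on FRT82B arrays only. Cyp4d1 passed on lgl array 1 alone. A gene that passes through 1 group had to be higher there, so the counts over the 22 are a description.

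**Figure D1:**
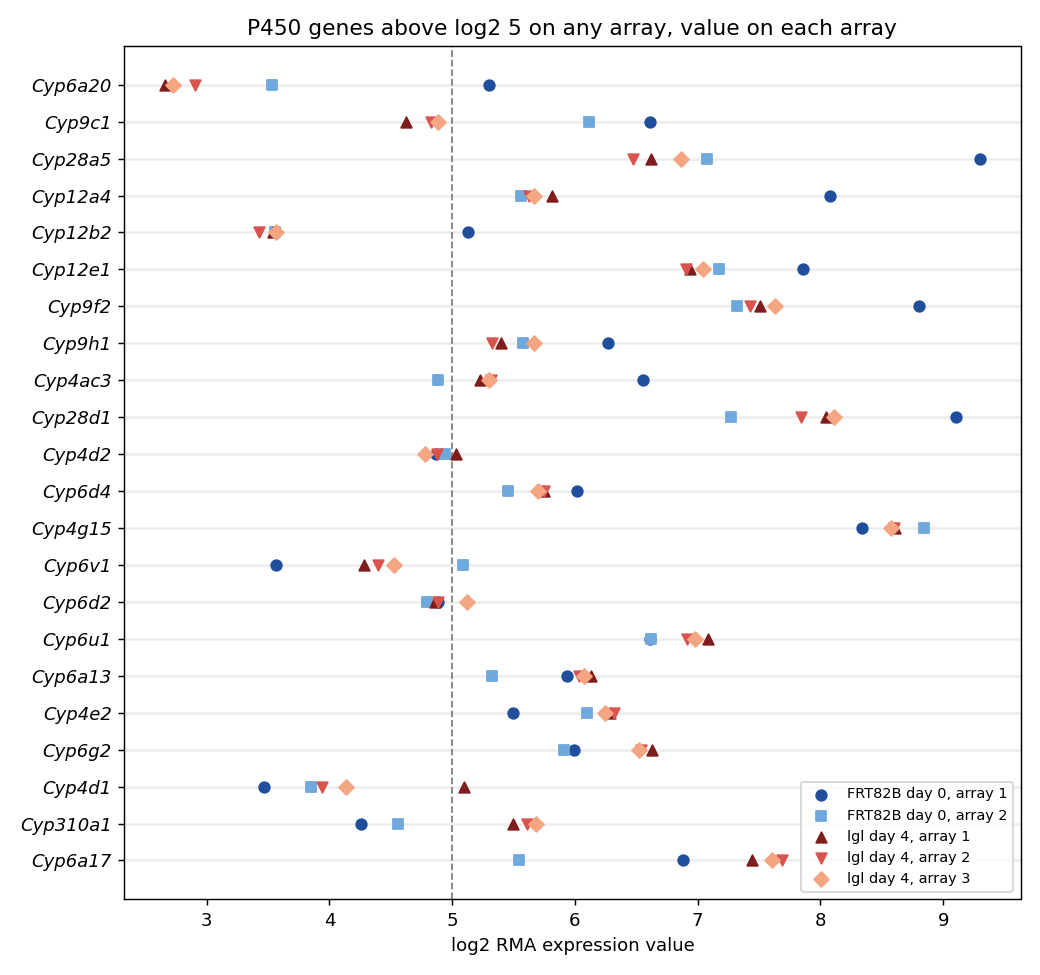
log2 RMA expression value (x axis) of the 22 P450 genes above log2 5 on any array (y axis, ordered by log2 change), with 1 symbol for each of 2 FRT82B and 3 lgl arrays and a dashed line at log2 5. The lgl symbols of a gene lie close together for most genes, while FRT82B array 1 lies far to the right for Cyp28a5, Cyp12a4, Cyp28d1, Cyp9f2 and others.

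Among the genes that were higher in lgl tissue, Cyp310a1 of the CYP3 clan was the one called. Its FRT82B values were 4.26 and 4.56, and its lgl values 5.50, 5.61 and 5.68. All lgl arrays were above both controls, and the gap between groups was wider than the spread in either. This made a log2 change of 1.19 (SE 0.12, limma adjusted p = 0.0324), 2.27 times the control level. Set against FRT82B array 1 by itself it came to 1.33, and against array 2 to 1.04.

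Cyp6g2 is known to confer insecticide resistance when overexpressed, and is expressed in the corpus allatum, the part of the ring gland that makes juvenile hormone. It read 5.99 and 5.91 in FRT82B and 6.62, 6.54 and 6.52 in lgl. The step was small but the arrays within each group nearly coincided. The log2 change of 0.61 (SE 0.07, adjusted p = 0.0408) was under the fold cut-off. The adjusted p missed the threshold when any 1 lgl array was left out (0.170 to 0.214), without FRT82B array 1 (0.0569), with quantile normalisation again (0.0691), with an intensity trend and robust prior (0.105), with array weights (0.183) and with the replicate block (0.338). Its neighbour Cyp6g1, known for resistance to DDT, lay at 2.84 to 3.10 on 4 arrays and at 4.68 on lgl array 1, and Cyp6t3, next in the same row of genes, at 3.32 to 3.43. Of the corpus allatum, the marker jhamt read 5.12 and 3.42 in FRT82B and 2.85, 3.90 and 3.57 in lgl, and its groups overlapped.

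Cyp6a17, which acts in temperature preference in flies, had the highest change of the family. Its values were 6.88 and 5.55 in FRT82B and 7.44, 7.68 and 7.61 in lgl. The groups did not overlap, but the controls lay 1.33 apart. The change of 1.36 (SE 0.41) was therefore not called (adjusted p = 0.198). It was 0.69 against FRT82B array 1 and 2.03 against array 2.

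Cyp6u1, Cyp6a13, Cyp4e2, Cyp4d1 and Cyp6d2 made up the rest of the 8 highest changes. Cyp6u1 read 6.61 and 6.62 against 7.09, 6.91 and 6.97 in lgl, a change of 0.38 (SE 0.08, adjusted p = 0.104). Cyp6a13 read 5.94 and 5.32 against 6.13, 6.04 and 6.07, and Cyp4e2 5.49 and 6.10 against 6.29, 6.32 and 6.24. In these 3 genes every lgl array was above both controls, and none was called. Groups stood apart in this direction in 7 of the 22 genes, against 26.0% of all genes above log2 5. In the other direction they did in 4 of the 22, against 23.1%. Of the 7, Cyp310a1 and Cyp4d1 passed log2 5 on lgl arrays only. Of the 4, Cyp9c1 and Cyp6a20 passed it on FRT82B arrays only. The direction of these genes was fixed by the selection. Cyp6d2, which has been linked to resistance to the plant toxin camptothecin, overlapped between groups, with 4.89 and 4.80 against 4.86, 4.89 and 5.12.

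Among the genes that were lower in lgl tissue, Cyp9c1 of the CYP3 clan was the one called. Its FRT82B values were 6.61 and 6.12, and its lgl values 4.63, 4.83 and 4.88. All lgl arrays lay under both controls by more than the controls differed. Between the groups this was a log2 change of -1.59 (SE 0.18, limma adjusted p = 0.0408), a fold of 3.00, with -1.83 against FRT82B array 1 and -1.34 against array 2. Of its relatives in the same family, Cyp9h1 read 6.27 and 5.58 against 5.40, 5.33 and 5.67, and Cyp9f2 8.80 and 7.32 against 7.51, 7.42 and 7.63. In both the groups overlapped, and neither was called. Cyp9b1 and Cyp9b2 stayed at or under log2 3.72 on all arrays.

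Cyp6a20, which acts in aggressive behaviour of adult males, had the lowest change of the family. It read 5.30 and 3.53 in FRT82B and 2.66, 2.91 and 2.72 in lgl. Every lgl array was under both controls, yet the controls lay so far apart that the change of -1.65 (SE 0.54) was not called (adjusted p = 0.223). Against array 1 it was -2.53 and against array 2 -0.77.

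Leaving out arrays removed these calls. Cyp310a1 and Cyp9c1 were not called when any 1 lgl array was left out, nor without FRT82B array 1, although their changes stayed between 1.04 and 1.33 and between -1.83 and -1.34. The adjusted p without 1 array ranged from 0.0180 to 0.202 for Cyp310a1 and from 0.0183 to 0.227 for Cyp9c1. When any 1 lgl array was left out, 0 of all 18769 probe sets were called, so that the calls of spok and GstT4 given below were lost too. With 2 against 3 arrays, an exact two-sided permutation test of any 1 gene cannot give a p under 0.1.

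**Figure D2:**
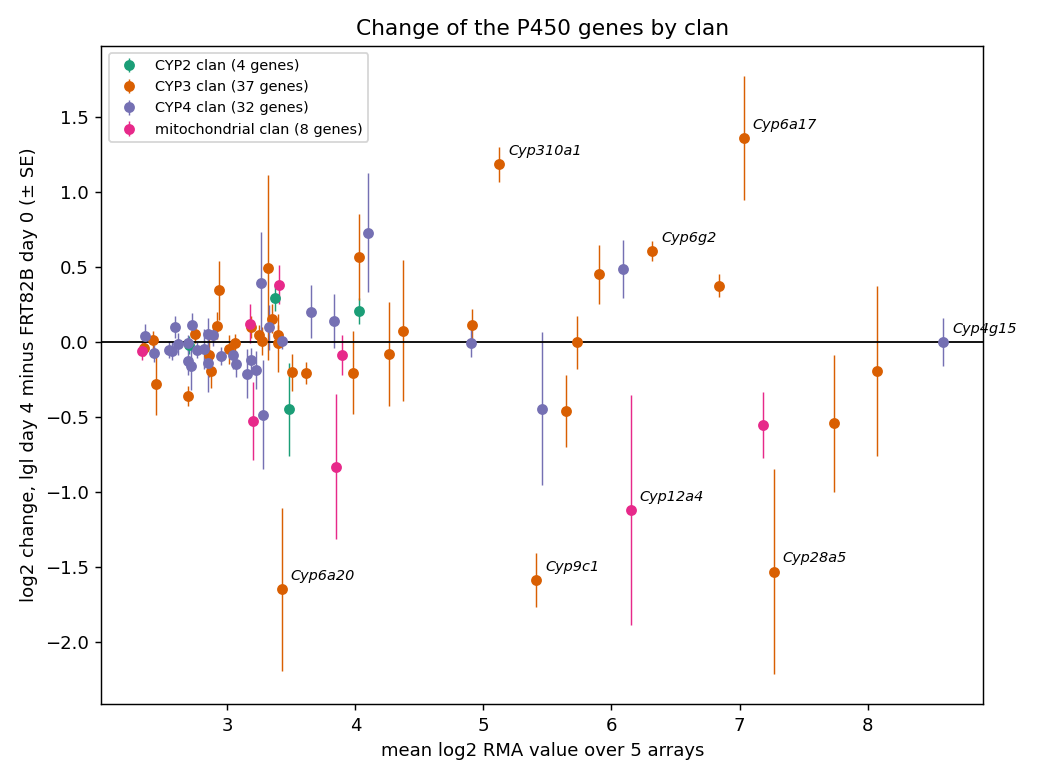
log2 change of each of the 81 P450 genes, lgl day 4 minus FRT82B day 0 (y axis, points with bars of ± 1 SE from limma), against its mean log2 RMA value over 5 arrays (x axis), coloured by clan. The genes that never pass log2 5 lie between -0.52 and 0.57, and the bars of Cyp310a1, Cyp6g2 and Cyp9c1 are short beside those of Cyp28a5, Cyp12a4 and Cyp6a20.

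The larger pattern in the family lay between the control arrays. Of the 22 genes above log2 5, 9 differed by at least 1 between FRT82B arrays 1 and 2, where 11.1% of all genes above log2 5 did. Array 1 was higher by at least 1 in 8 of the 22, against 3.58% of all genes above log2 5. Array 2 was higher by at least 1 in 1 of the 22, Cyp6v1, against 7.57%. Over all genes above log2 5, 767 had controls at least 1 apart, and array 1 was the higher in 246 of them. Of the 9 P450 genes, Cyp12b2 and Cyp6a20 passed log2 5 on FRT82B array 1 alone, and Cyp6v1 on FRT82B array 2 alone. They entered the 22 only through the array on which they were high, so their direction was fixed by the selection. The 22 genes had a median gap between the controls of 0.65, against 0.44 over all genes above log2 5, and a median range over the 3 lgl arrays of 0.20, against 0.21. FRT82B array 1 was the highest of the 5 arrays in 11 of the 22, against 37.7% of all genes above log2 5. This difference between libraries of 1 group was read as a description, without a test.

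The genes that carried this gap were Cyp12a4, Cyp28a5, Cyp28d1, Cyp6a20, Cyp4ac3, Cyp12b2, Cyp9f2 and Cyp6a17. Cyp12a4, a mitochondrial P450 known for resistance to the insecticide lufenuron, read 8.08 and 5.56 in FRT82B and 5.81, 5.62 and 5.67 in lgl. Thus FRT82B array 2 was like the lgl arrays, and array 1 alone was high. Cyp28a5 read 9.30 and 7.08 against 6.62, 6.48 and 6.87, and Cyp28d1, which has been linked to nicotine resistance, 9.11 and 7.27 against 8.05, 7.84 and 8.11. In Cyp28a5 both controls were above the lgl arrays, while in Cyp28d1 the lgl arrays lay between the controls. Cyp12b2 read 5.13 and 3.56 against 3.54, 3.43 and 3.57. Cyp4ac3, named here after its values were seen, read 6.56 and 4.89 against 5.22, 5.31 and 5.30.

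The size of these changes, and in some genes the sign, hung on which control was used. Cyp12a4 was -2.38 against array 1 and 0.14 against array 2, and Cyp28d1 was -1.11 and 0.72. Cyp9f2 was -1.28 and 0.20, Cyp4ac3 -1.28 and 0.39, and Cyp28a5 -2.64 and -0.42. Only Cyp28a5 of these 5 kept its sign. The rest of the genes that carried the gap kept theirs, with Cyp6a20 at -2.53 and -0.77, Cyp6a17 at 0.69 and 2.03, and Cyp12b2 at -1.62 and -0.04. Without FRT82B array 2 limma called 9 P450 genes lower, where 3.46% of all genes were, and 1 higher, where 5.22% were. The 9 were Cyp12a4, Cyp12b2, Cyp28a5, Cyp28d1, Cyp4ac3, Cyp4g1, Cyp6a20, Cyp9c1 and Cyp9f2. Without FRT82B array 1 no P450 gene was called in either direction, and calls were few over all genes too. In both fits the control is 1 array, whose spread is assumed to be that of the lgl arrays.

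**Figure D3:**
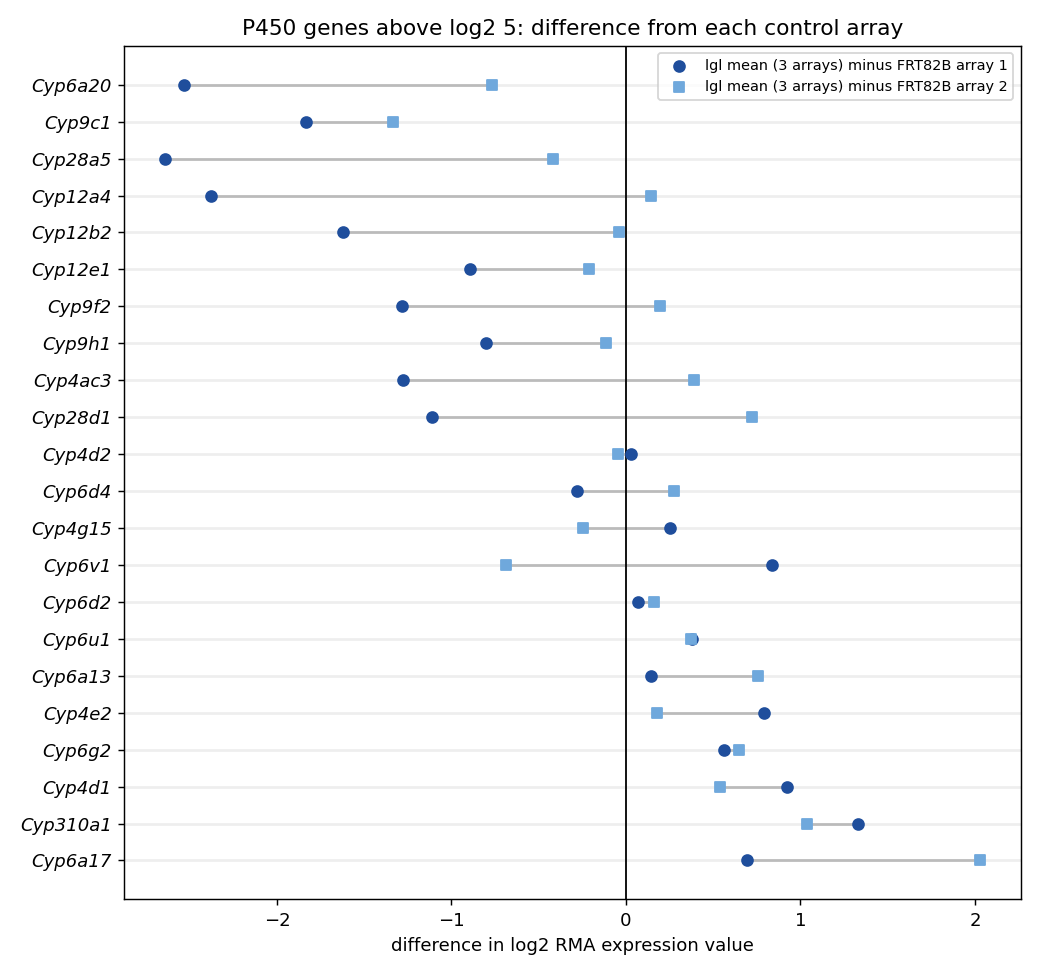
Difference between the mean of 3 lgl arrays and each FRT82B array, in log2 RMA expression value (x axis), for the 22 P450 genes above log2 5 (y axis, ordered by log2 change), with circles for array 1, squares for array 2 and a line joining both. The line crosses 0 for Cyp12a4, Cyp9f2, Cyp4ac3 and Cyp28d1, among others, while that of Cyp9c1 lies wholly below 0 and those of Cyp310a1 and Cyp6a17 wholly above.

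The same gap was counted in related families. Over all genes FRT82B array 1 was higher than array 2 in 53.2%, and by at least 1 in 2.34%. Of 34 glutathione S-transferases, enzymes that couple toxins to glutathione, 28 were higher on FRT82B array 1 than on array 2, and 9 of them by at least 1. Among the UDP-glycosyltransferases, which couple toxins to sugars, 21 of 35 were higher on array 1, and 3 by at least 1. Of the glia markers 4 of 6 were higher on array 1 and 2 by at least 1, with a mean level of the list of 9.19 and 8.83. The glia markers repo (7.67 and 8.50 on arrays 1 and 2) and moody (7.69 and 7.88) went the other way. Higher on array 1 were 0 of 7 eye-antennal disc markers (mean level 5.53 and 6.34 on arrays 1 and 2) and 0 of 3 measured fat body markers (5.42 and 6.72). So were 4 of 6 neuron, 2 of 5 neuroblast, 5 of 7 ring gland and 4 of 8 haemocyte markers. The counts were 1 of 5 for trachea, 1 of 3 for gut and Malpighian tubule and 1 of 6 for salivary gland. In these further lists 2 haemocyte markers and 1 ring gland marker were higher by at least 1. The part of tissue composition in the P450 values was not tested.

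Between lgl arrays the family was steadier. Across the 81 genes, 3 stood at least 0.5 above both other lgl arrays on lgl array 1, 0 on lgl array 2 and 1 on lgl array 3, against 0.517%, 0.517% and 0.734% of all genes. The 3 were Cyp6g1, Cyp4d1 and Cyp4ac1, and the 1 was Cyp6t1. Of these, Cyp4ac1 and Cyp6t1 are named after their values were seen. Cyp4d1 read 3.47 and 3.85 in FRT82B and 5.10, 3.94 and 4.13 in lgl, and Cyp4ac1 3.09 and 2.96 against 4.05, 3.12 and 3.10. All 3 genes were thus near the controls on lgl arrays 2 and 3 and high on array 1. The storage protein gene Lsp2, a fat body marker, read 6.78 and 7.70 against 11.83, 8.86 and 10.97, and Fbp1, another, 4.08 and 6.51 against 8.53, 5.54 and 5.34. Both were highest on lgl array 1, whereas Fbp2 was highest on lgl array 3 (8.01, against 7.17 on array 1 and 6.29 on array 2). Without lgl array 1 the change of Cyp6g1 was -0.09, and that of Cyp4d1 was 0.38, against 0.73 with it. The part of fat body RNA in these values was not tested.

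**Figure D4:**
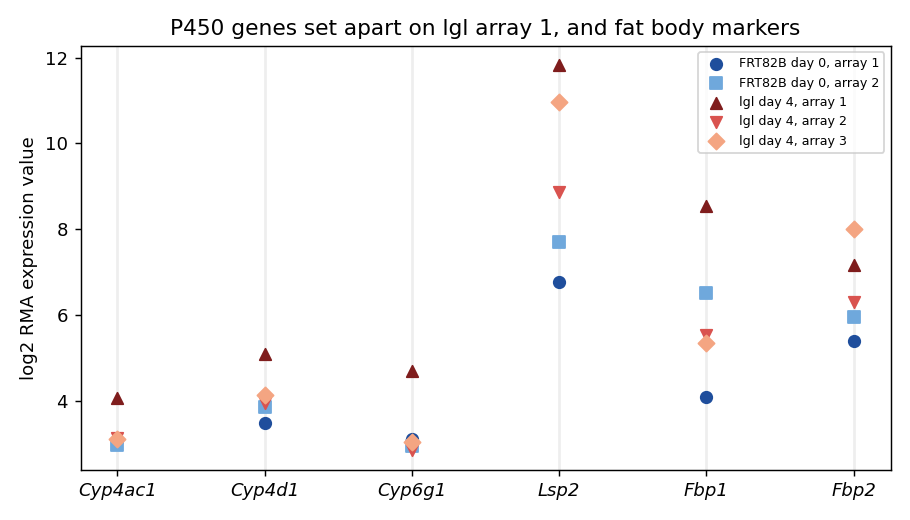
log2 RMA expression value (y axis) on each of 5 arrays for the 3 P450 genes at least 0.5 higher on lgl array 1 than on the other lgl arrays, and for the 3 measured fat body markers Lsp2, Fbp1 and Fbp2 (x axis). On lgl array 1, Cyp6g1 reads 4.68, against 2.84 and 3.04 on lgl arrays 2 and 3.

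Members with a known role were described whether or not they were called. Cyp18a1, the enzyme that inactivates the moulting hormone 20-hydroxyecdysone, read 3.91 and 3.90 in FRT82B and 4.15, 3.99 and 4.19 in lgl on the brighter of its probe sets. Every lgl array was above both controls, by a change of 0.21 (SE 0.09, adjusted p = 0.309). Its other probe set read 3.51 and 3.42 against 4.32, 4.10 and 4.33. There the change was 0.79 (SE 0.10, adjusted p = 0.0512), which missed the threshold, so the probe sets agreed in direction and not in size. EcR and usp, the genes of the receptor for this hormone, were above both controls on every lgl array, as were 26.0% of all genes above log2 5. Their changes were 0.33 (SE 0.08) and 0.54 (SE 0.27), and neither was called. For usp the lowest lgl array read 7.05, against 7.02 on FRT82B array 2.

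Cyp4g15, known to be expressed in the larval brain, had the change nearest to 0 among the 22 bright members. It read 8.34 and 8.84 in FRT82B and 8.61, 8.60 and 8.58 in lgl, so that the lgl arrays lay between the controls. The change was 0.00 (SE 0.16). Its relative Cyp4g1, which makes cuticular hydrocarbons in oenocytes, read 4.16 on FRT82B array 1 and 2.97 to 3.09 on the other arrays, and was thus another gene that was high on that array alone. Cyp6v1 ran the opposite way between the controls, at 3.57 and 5.09, with 4.28, 4.40 and 4.53 in lgl. A further probe set, annotated to both shn and Cyp6v1, fell outside the rule of a single symbol. It read 7.09 and 7.11 against 5.52, 5.68 and 5.36 (change -1.58, SE 0.11, limma adjusted p = 0.0227). That change passed both thresholds, but it cannot be assigned to 1 of the genes. Cyp4d2 stayed within 4.78 and 5.03.

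Other members with a known role were dim, unlike Cyp12a4, Cyp28d1 and Cyp6g2 above. Cyp6a2 and Cyp6a8, which are raised in resistant strains, lay at 3.15 to 3.41 and 3.02 to 3.11 over the 5 arrays. Cyp12d1-d, also linked to resistance, lay at 2.25 to 2.38. Cyp4e3, which acts in tubules against pyrethroids, read 3.20 to 3.63. Cyp301a1, needed for adult cuticle, read 3.06 to 3.45, Cyp303a1, needed for sensory bristles, 2.68 to 2.76, and Cyp4d21, which acts in male courtship, 2.38 to 2.49. Cyp311a1 read 2.28 to 2.49. All of these were at or under the median probe set of their arrays, where a change is hard to measure on these arrays. Of the 59 dim genes 42 varied by under 0.5 over all 5 arrays, and 0 were called, where 0.0980% of all dim genes were. At an unadjusted p under 0.05 there were 4 of 59, against 408 of all 5101 dim genes.

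None of the 8 members of the mitochondrial clan was called, where 1.34% of all genes were. Besides Cyp12a4 and Cyp12b2, Cyp12e1 passed log2 5. In Cyp12e1 every lgl array was under both controls on each of its probe sets. The brighter read 7.86 and 7.17 in FRT82B and 6.94, 6.90 and 7.04 in lgl (change -0.55, SE 0.22, adjusted p = 0.291), and the other had a change of -0.84 (SE 0.30).

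Many P450 genes lie side by side. In the current order of protein-coding genes, 42 of the measured members stood in 15 rows of adjacent P450 genes, of 2 to 9 genes. The longest row, of 9 genes, holds both Cyp6a17 and Cyp6a20, which had the highest and the lowest change of the family. Its other 7 genes stayed under log2 5, where Cyp6a23, next to Cyp6a17, read 4.87 and 3.75 in FRT82B and 4.20, 4.29 and 4.20 in lgl. Cyp6a23 followed Cyp6a17 in being lower on FRT82B array 2, but in lgl tissue it stayed between the controls. Close copies in such rows can share probes, and this was not analysed here.

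P450 genes known by other names belong to the synthesis of ecdysone. Of 5 measured genes 1, spok, was called lower, where 0.609% of all genes were. It read 9.27 and 8.81 in FRT82B and 2.49, 3.59 and 3.05 in lgl. The enzyme gene sad read 6.07 and 7.86 against 3.70, 4.94 and 4.69 (change -2.52, SE 0.68, adjusted p = 0.164). These are genes of the ring gland, where 3 of 7 measured markers, spok among them, were called lower, against 0.609% of all genes. The marker list also holds sad and dib, so the counts of the lists overlap. The genes dib (4.17 and 4.56 against 3.92, 3.60 and 3.74), shd and spo were dim, with shd at 3.16 to 3.66 and spo at 2.46 to 2.79. In 4 of the 5, shd being the exception, every lgl array lay under both controls, as in 21.1% of all genes.

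No measured partner or regulator of P450 enzymes was called. Redox partners pass electrons to P450 enzymes. Of 7 genes listed as such, 4 were measured and 0 called, where 1.34% of all genes were. In all 4 the groups overlapped. The others, Cpr, dare and Fdxh, were not measured, so nothing can be said of them here. Cyt-b5, cytochrome b5, read 10.44 and 10.08 in FRT82B and 9.91, 9.98 and 10.27 in lgl. The ferredoxin genes Fdx1 and Fdx2, whose kind serves mitochondrial P450 enzymes, read 7.98 and 7.33 against 7.35, 7.35 and 7.34, and 8.28 and 7.10 against 7.64, 7.75 and 7.78. Both were highest on FRT82B array 1, as was Cyt-b5, and as were 37.7% of all genes above log2 5. Cyt-b5-r, for which a role as redox partner is not shown here, read 2.76 to 3.95. Of 8 regulators of detoxification genes 0 were called, where 1.34% of all genes were. Of the 6 above log2 5, every lgl array was above both controls in 1, against 26.0% of all such genes. This was Hr96, a nuclear receptor of the response to toxins (change 0.59, SE 0.18, adjusted p = 0.206). Every lgl array was under both controls in 1, maf-S (change -0.39, SE 0.15), against 23.1%. The Nrf2-type factor cnc had a change of -0.06 (SE 0.16). Hr96, maf-S and cnc were named outside the rule for called members.

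The other detoxification families were counted in the same way. Of 34 glutathione S-transferases 1 was called higher and 0 lower, where 0.734% and 0.609% of all genes were. GstT4 read 7.05 and 7.01 in FRT82B and 8.15, 7.88 and 8.22 in lgl (change 1.05, SE 0.12, adjusted p = 0.0411). Larger changes that were not called stood beside it, named here after their values were seen. GstD3 read 5.75 and 4.46 against 8.27, 8.22 and 8.76 (adjusted p = 0.0516). GstE14, which acts in ecdysone synthesis, read 6.62 and 5.05 against 2.96, 3.27 and 2.96 (adjusted p = 0.0813). Of 35 UDP-glycosyltransferases 0 were called, where 1.34% of all genes were. In 7 of them every lgl array lay under both controls, which is near the share of 21.1% over all genes.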

How the data were processed

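The authors deposited log2 expression values, background corrected, normalised and summarised per probe set with RMA, from Affymetrix Drosophila 2.0 arrays. The sources used here name no software version. RMA gives arrays nearly the same distribution and compresses changes near background. For arrays, their number limits the precision. Labels give 20 pairs of complexes per array and the titles call the samples biological replicates. The 183 control probe sets were left out, which left 18769. Of these, 13647 had 1 gene symbol. Where a gene had several such probe sets, the one with the highest mean over 5 arrays was used, as for 2 P450 genes. All 81 gene identifiers were found in a current RefSeq table (Release 6 assembly), used for names and gene order only. A further 4 P450 symbols of that table, among them pseudogenes, had no probe set of their own and were not analysed here.

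Groups were compared with limma 3.58.1 (lmFit, eBayes; R 4.3.3), after the study's methods, with Benjamini-Hochberg adjustment over all probe sets. The fit was tested on simulated data. The genes and lists were chosen with earlier results of these data known. P450 genes were named when called, as the 8 highest and 8 lowest changes above log2 5, for a known role, or beside the level of 5. Related lists were named whole for other P450 genes and by their called members for transferases, and redox partners were named where measured. Alternatives were other normalisations, filters, priors, weights, cut-offs and probe set rules, the replicate block, and leaving out each array.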

Additional observations from a re-analysis of the deposited data

How the results depend on the processing

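The P450 genes called, 1 higher and 1 lower, were the same genes (Cyp310a1 and Cyp9c1) after median centring or a second quantile normalisation, over the brighter probe sets, under a robust prior with an intensity trend, with probe sets averaged per gene or counted singly, and at an adjusted p under 0.10. Without a fold cut-off, or with one of 0.5, 2 were called higher, since Cyp6g2 was added. limma called 0 higher and 0 lower with array weights, where 12 probe sets were called in all. With the replicate number as a block 0 were called higher and 0 lower, with 3 at an unadjusted p under 0.05, and 0 of all probe sets were called. Equal numbers pair no animals here, and the difference of replicates 1 and 2 correlated at 0.06 between the groups. Without 1 array the count called higher ranged from 0 to 1 and that called lower from 0 to 9, the highest without FRT82B array 2, where 1306 probe sets were called in all, against 197. The median change of the bright P450 genes ranged from -0.13 without FRT82B array 2 to 0.17 without FRT82B array 1, and was -0.19 over 15 genes above log2 6. The signs of 14 of the 32 P450 genes named by rule turned in 31 of 341 gene and setting pairs, 13 of them for genes above log2 5. In 0 of these 31 was the change over 0.25 on both sides. Each turn was counted against the fit of all 5 arrays, which averages both controls. Between the fits without FRT82B array 2 and without FRT82B array 1, larger turns were seen. Cyp28d1 went from -1.11 to 0.72, Cyp6v1 from 0.84 to -0.69 and Cyp6a23 from -0.64 to 0.48. Cyp4ac3, which is outside these 32, turned from -0.44 to 0.39 without FRT82B array 1. Where each difference between settings came from was not tested. Changes near the background of a probe set cannot be measured on these arrays.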
